A study of Ovis aries with 6 samples.

Results

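The core circadian clock genes are the small set of genes whose products keep daily time in most mammalian cells. Here they are ARNTL, CLOCK, NPAS2, PER1, PER2, PER3, CRY1, CRY2, NR1D1 and NR1D2, chosen by gene name and not by any measured value. Of these 10 genes, 9 were found by name among the 23144 genes of the table. PER3 was listed as LOC100125623, a row that the files describe as Period 3 and whose number is the RefSeq gene ID of PER3. PER2 was listed at 0 reads in every library, so 9 genes carried values and all 9 passed the filter for low counts.

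In the clock, the transcription factors ARNTL (also called BMAL1) and CLOCK, or its relative NPAS2, pair and switch on genes with E-box elements, among them the PER, CRY and NR1D genes. PER and CRY proteins then return to the nucleus and block the pair, while NR1D1 and NR1D2 (REV-ERB alpha and beta) repress transcription of ARNTL. Transcripts of ARNTL and of its targets therefore peak at different times of the day in tissues that have been followed around the clock, skeletal muscle included.

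The RNA came from the longissimus dorsi, the long back muscle, of 3 ewes of the Qianhua Mutton Merino breed (QHMM) and 3 of the Small Tail Han breed (STH), 1 year old and untreated. All were kept on the same farm under natural light with food and water at will, and each animal gave 1 library. The authors also report a fast before slaughter, after which live weight was taken, so the muscle need not have come from freely fed animals. Each animal was sampled once, and the time of day at which the muscle was taken is not given in the sources used here. All comparisons are of STH vs. QHMM, and p-values weigh the difference between the breeds against the spread between animals of the same breed.

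Library totals on genes ranged from 10982191 to 14334544 reads. The core clock genes took 0.0206% to 0.0469% of them, which is 2668 to 6153 reads per library. The first principal component separated the breeds with 44.1% of the variance, and the second (19.1%) set QHMM replicate 2 and STH replicate 3 apart from the rest. The muscle genes ACTA1, CKM, DES and TTN were present in all libraries, with a summed RPKM of 64601 to 106505. RPKM scales the reads of a gene to its length and to the depth of the library.

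The NR1D genes, PER1 and the cryptochromes were more abundant than the activators ARNTL, CLOCK and NPAS2, and PER3 lay among the activators. On the RPKM scale, the mean over the 6 libraries was 48.3 for NR1D1, 46.8 for NR1D2, 23.6 for PER1, 15.5 for CRY2 and 9.38 for CRY1. It was 4.01 for ARNTL, 2.10 for PER3, 1.41 for CLOCK and 0.438 for NPAS2. NR1D1 lay above 93.1% of the 17644 genes with reads, ARNTL above 59.6% and NPAS2 above 28.1%. Over all 6 libraries the range of CRY1 (5.55 to 14.3) did not meet that of ARNTL (3.18 to 5.01), and the range of CLOCK (0.756 to 2.59) did not meet that of NPAS2 (0.0600 to 0.569). The ranges of the other neighbours in this order overlapped. The gene lengths implied by the counts and RPKM values were multiples of 3 in 6 of the 9 genes and in 41.3% of 12495 genes. A coding sequence without UTRs would have such a length, but other lengths can be multiples of 3 by chance. These shares therefore do not count coding-only gene models, and levels of different genes may not rest on the same kind of model.

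**Figure D1:**
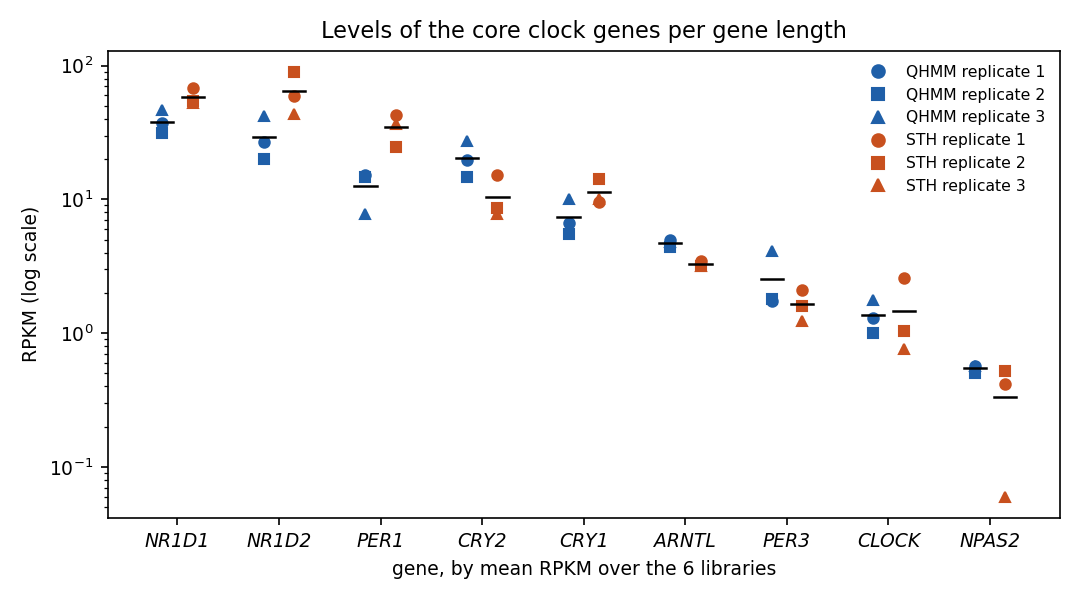
RPKM (log axis) of the 9 core clock genes with reads, ordered by their mean over the 6 libraries. Each symbol is 1 library, QHMM in blue and STH in orange, and black bars are breed means. NR1D1 and NR1D2 stand highest, at 20 to 89.6, and NPAS2 lowest, at 0.0600 to 0.569.

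Between the breeds, edgeR's quasi-likelihood F test called 1 of the 9 genes, CRY2, which fell in STH. A call needed an FDR below 0.05, adjusted over 12506 genes, and a difference of more than 1.5-fold, and 3.45% of all genes tested met both (1.62% as higher and 1.83% as lower in STH). The separation of the libraries was wider than the calls. In 6 of the 9 genes every STH library lay on one side of every QHMM library in normalized counts, against 24.7% of all genes tested. PER1, NR1D1 and NR1D2 were higher in all 3 STH animals (13% of genes tested were), and ARNTL, NPAS2 and CRY2 were lower in all 3 (11.7%). Before adjustment, 5 of the 9 genes had a p below 0.05 in edgeR, against 19.2% of all genes, and DESeq2 called 3, PER1, CRY2 and NR1D2, against 7.8%. In RPKM, which carries no TMM scaling, the breeds were apart in 4 of the 9 (ARNTL, PER1, NR1D1 and NR1D2), against 23.3% of genes. The median log2 fold change was -0.05 over the 9 genes and 0.0234 over all genes. Without QHMM replicate 2 and STH replicate 3, these 6 genes stayed apart, as any gene apart in all 6 libraries must. No other of the 9 genes joined them, and 49% of all genes were apart. In that setting edgeR called 0 of the 9 and 0.0864% of all genes.

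**Figure D2:**
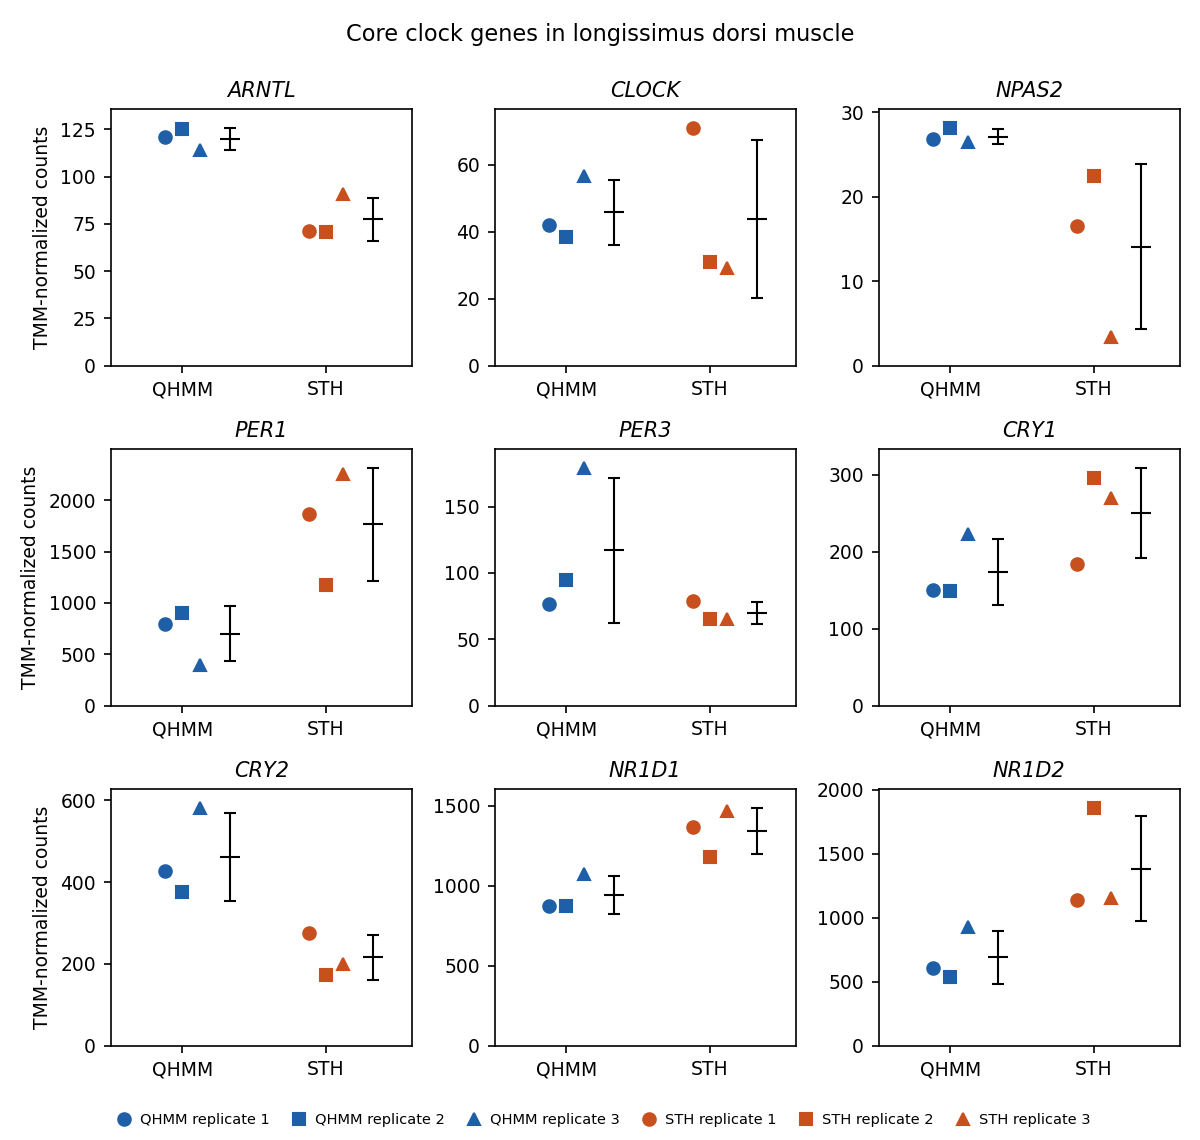
TMM-normalized counts of the 9 core clock genes with reads, 1 panel per gene and each axis from 0. Symbols are single libraries, and the black marks are the mean and SD of 3 animals. PER1, NR1D1 and NR1D2 are higher in every STH animal than in any QHMM animal, ARNTL, NPAS2 and CRY2 are lower, and CLOCK, PER3 and CRY1 overlap.

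ARNTL, the activator without which the clock of a cell stops, had normalized counts of 121, 125 and 114 in the QHMM animals and of 71.0, 70.5 and 90.7 in the STH animals, given here and below in the order of replicates 1, 2 and 3. The QHMM animals lay close together, and all 3 STH animals lay below them. The mean was 119.8 ± 5.80 (SD, n = 3) in QHMM and 77.4 ± 11.5 (n = 3) in STH. The difference, -0.63 on the log2 scale (SE 0.24, 95% interval -1.17 to -0.09), was not past the threshold in edgeR (FDR = 0.188). CLOCK, its usual partner, had 42.0, 38.6 and 56.8 normalized counts in QHMM and 71.0, 31.0 and 29.1 in STH. STH replicate 1 was the highest of all 6 libraries and the other STH animals were the lowest, so the breeds overlapped. The log2 fold change of CLOCK was -0.05 with a 95% interval of -0.94 to 0.83, which lies widely on both sides of 0. CLOCK had 26 to 86 reads per library, and its log2 fold change moved with single libraries. It was -0.62 without STH replicate 1 and 0.17 without STH replicate 3. NPAS2, which can stand in for CLOCK, had 26.8, 28.1 and 26.4 normalized counts in QHMM and 16.5, 22.4 and 3.36 in STH. STH replicate 3, with 3 reads, stood far below the other libraries. The log2 fold change of NPAS2 was -0.92 (SE 0.54, edgeR FDR = 0.392), and -0.48 without STH replicate 3. In RPKM, NPAS2 of STH replicate 2 (0.518) was above that of QHMM replicate 2 (0.501), so the breeds met on that scale.

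PER1, a repressor of the clock that also answers within an hour or so to glucocorticoids and other signals, showed the largest difference of the 9 genes. It had 797, 902 and 399 normalized counts in QHMM and 1868, 1169.9 and 2252 in STH. The lowest STH animal was above the highest QHMM animal, and QHMM replicate 3 was well below the other QHMM animals. The mean was 699.5 ± 266 in QHMM (SD, n = 3) and 1763 ± 548 in STH (n = 3), which is 2.52-fold or 1.33 on the log2 scale (SE 0.34, 95% interval 0.59 to 2.08). The FDR of 0.0595 in edgeR was not past the threshold, and over the alternative settings it ranged from 0.00352 to 0.193. With 1 library left out the log2 fold change of PER1 was 1.05 to 1.56. The 1.05 was without QHMM replicate 3 (edgeR FDR = 0.144). DESeq2 called PER1, with a log2 fold change of 1.31 (FDR = 0.00352), and so did limma-trend on log2(RPKM + 1) of genes past an RPKM filter, with 1.40 (FDR = 0.0342), but not limma-trend without that filter (FDR = 0.104).

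PER3, a family member that is not needed to keep the rhythm, did not share the direction of PER1. It had 76.8, 94.8 and 179 normalized counts in QHMM and 79.2, 65.2 and 65.0 in STH. QHMM replicate 3 stood far above the other libraries, and STH replicate 1 was above QHMM replicate 1. The log2 fold change of PER3 was -0.74 (SE 0.34, edgeR FDR = 0.265), and -0.29 without QHMM replicate 3. The row of PER2, the third period gene, held 0 reads in all 6 libraries. A row at 0 cannot be read as absence in this table, since TNNT3, the troponin T of fast muscle fibres, was also listed at 0 in all 6. In all, 5476 genes were listed at 0 throughout.

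The cryptochromes, which bind the ARNTL and CLOCK pair and shut it off, are CRY1 and CRY2. CRY2 had 428, 375 and 581 normalized counts in QHMM and 276, 172 and 201 in STH. All STH animals lay below all QHMM animals. CRY2 fell from 461 ± 107 (SD, n = 3) to 216 ± 54.0 (n = 3), or 2.13-fold, and its log2 fold change was -1.09 (SE 0.26, 95% interval -1.66 to -0.52, edgeR FDR = 0.0488). This call is marginal. It was held by DESeq2 (FDR = 0.00553) but lost with upper-quartile normalization (FDR = 0.0557), with limma-trend on log2(RPKM + 1) (FDR = 0.136), and without any 1 library except STH replicate 1, within a range of 0.00553 to 0.238 over all settings. In RPKM, STH replicate 1 (15.1) was above QHMM replicate 2 (14.6). CRY1 had 150, 149 and 223 normalized counts in QHMM and 184, 296 and 270.0 in STH. QHMM replicate 3 lay above STH replicate 1, so the breeds overlapped. The log2 fold change of CRY1 was 0.52 (SE 0.27, 95% interval -0.08 to 1.12, edgeR FDR = 0.324).

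Set against each other within a library, the cryptochromes separated the breeds. The log2 ratio of CRY2 to CRY1 in RPKM was 1.57, 1.39 and 1.44 in QHMM and 0.65, -0.72 and -0.37 in STH. The QHMM animals agreed to within a narrow band, and the STH animals were all below it but far apart. CRY1 made up 25.2%, 27.6% and 27.0% of the summed RPKM of both genes in QHMM and 39.0%, 62.3% and 56.4% in STH. The sum itself was 20.1 to 37.3 in QHMM and 17.9 to 24.7 in STH, and overlapped.

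NR1D1 and NR1D2 are heme-binding nuclear receptors that repress ARNTL and genes of lipid and glucose metabolism. NR1D1 had 877, 874 and 1077 normalized counts in QHMM and 1371, 1183 and 1469 in STH. Every STH animal was above every QHMM animal, by a modest margin. The log2 fold change of NR1D1 was 0.51 (SE 0.21, 95% interval 0.04 to 0.97, edgeR FDR = 0.217). NR1D1 overlaps THRA, a thyroid hormone receptor gene, in the RefSeq annotation, and whether strand was used in counting is not given in the sources used here. THRA had 2291, 3623 and 2812 normalized counts in QHMM and 2406, 1684 and 3314 in STH, and its breeds overlapped at a log2 fold change of -0.24. NR1D2 had 609, 536 and 927 normalized counts in QHMM and 1141, 1857 and 1157 in STH. The breeds did not overlap, and STH replicate 2 stood above the other STH animals. NR1D2 was 2-fold higher in STH, a log2 difference of 1.0 (SE 0.28, 95% interval 0.37 to 1.63, edgeR FDR = 0.0826), and 0.72 without STH replicate 2. DESeq2 called NR1D2 (FDR = 0.0215), and its FDR lay between 0.0215 and 0.273 over the alternative settings. The RPKM of NR1D1 and NR1D2 together was 51.1 to 88.0 in QHMM and 95.4 to 144 in STH.

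Ratios of NR1D1, PER1 and CRY1 to ARNTL do not depend on how libraries are scaled. The log2 ratio of NR1D1 to ARNTL in RPKM was 2.89, 2.83 and 3.27 in QHMM and 4.29, 4.09 and 4.04 in STH. NR1D1 was thus 7.96 times ARNTL in QHMM and 17.7 times in STH, as geometric means of 3 animals. The log2 ratio of PER1 to ARNTL was 1.61, 1.74 and 0.70 in QHMM and 3.61, 2.94 and 3.52 in STH. The log2 ratio of CRY1 to ARNTL was 0.41, 0.34 and 1.07 in QHMM and 1.47, 2.16 and 1.67 in STH. For each of these 3 ratios all STH animals were above all QHMM animals, with differences between the breed means of 1.15, 2.01 and 1.16. For NR1D1 and PER1 this separation had to follow, since in RPKM each was apart upward and ARNTL downward. CRY1 on its own overlapped in RPKM. The share of separated ratios among other gene pairs was not computed. The ratios of NR1D2 to NR1D1 and of NPAS2 to CLOCK overlapped between the breeds. The ratios were not tested, because an exact permutation test on 3 and 3 animals reaches a p of 0.10 at the lowest.

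**Figure D3:**
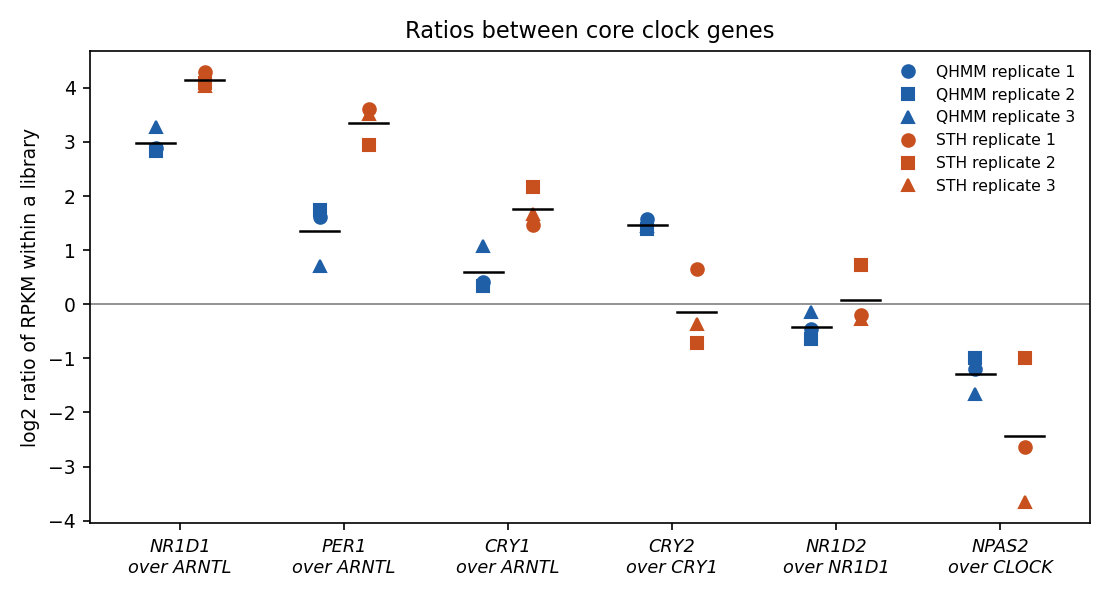
Log2 ratios of RPKM within each library for 6 pairs of core clock genes. Symbols are single libraries, and black bars are breed means of 3 animals. NR1D1, PER1 and CRY1 over ARNTL are higher, and CRY2 over CRY1 lower, in each STH animal than in any QHMM animal, whereas NR1D2 over NR1D1 and NPAS2 over CLOCK overlap.

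Of 19 genes that regulate the core clock, all were listed, 16 were tested, and edgeR called 1 as higher in STH (1.62% of all genes were) and 0 as lower (1.83%). Their median log2 fold change was 0.20. The called gene was CIART, a repressor of the ARNTL and CLOCK pair that is itself switched on by it, listed as C1H1orf51. CIART had 9.82, 15.2 and 38.6 normalized counts in QHMM and 139, 119 and 190.4 in STH. It rose from 21.2 ± 15.3 (SD, n = 3) to 149 ± 37.1 (n = 3), 2.81 on the log2 scale (SE 0.45, edgeR FDR = 0.0128), and was called without any 1 of the libraries, though not without both QHMM replicate 2 and STH replicate 3. QHMM replicate 3, the highest of its breed, was still well below the lowest STH animal. CSNK1D, a kinase that marks PER proteins for breakdown, had a log2 fold change of 1.17 (SE 0.29, edgeR FDR = 0.0571), and every STH animal lay above every QHMM animal. RORA, which activates ARNTL at the sites that NR1D1 and NR1D2 use, had 1.15 (SE 0.38, edgeR FDR = 0.126), and STH replicate 2 had 565 normalized counts where the other libraries had 103 to 243. ARNTL2 and RORB, at 0 to 7 and 0 to 1 reads, did not pass the filter, and FBXL21 was listed at 0.

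All 10 genes of the clock output list were tested and edgeR called 0, against 3.45% of all genes. An unadjusted p below 0.05 was found for 6 (19.2% of all genes), and DESeq2 called 3, HLF, BHLHE40 and NAMPT (7.8%). Their median log2 fold change was -0.56, with 8 of 10 values below 0. HLF, a PAR bZIP factor driven by the clock, had 87.5, 53.8 and 88.3 normalized counts in QHMM and 34.7, 27.8 and 33.6 in STH, a log2 difference of -1.26 (SE 0.31, edgeR FDR = 0.0569). Its relative TEF had -0.72 (SE 0.22, edgeR FDR = 0.101). DBP, the third PAR bZIP factor and a direct target of ARNTL and CLOCK, had 137, 104 and 168 normalized counts in QHMM and 163, 124 and 165 in STH. DBP overlapped between the breeds, and its log2 fold change was 0.14 (95% interval -0.43 to 0.72). BHLHE40, which competes for E-boxes, had -1.07 (SE 0.30, edgeR FDR = 0.0765). NAMPT, the rate-limiting enzyme of NAD salvage, had 1.28 (SE 0.42, edgeR FDR = 0.129), where STH replicate 2 had 1419.9 normalized counts and the other STH libraries 401 and 458.

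**Figure D4:**
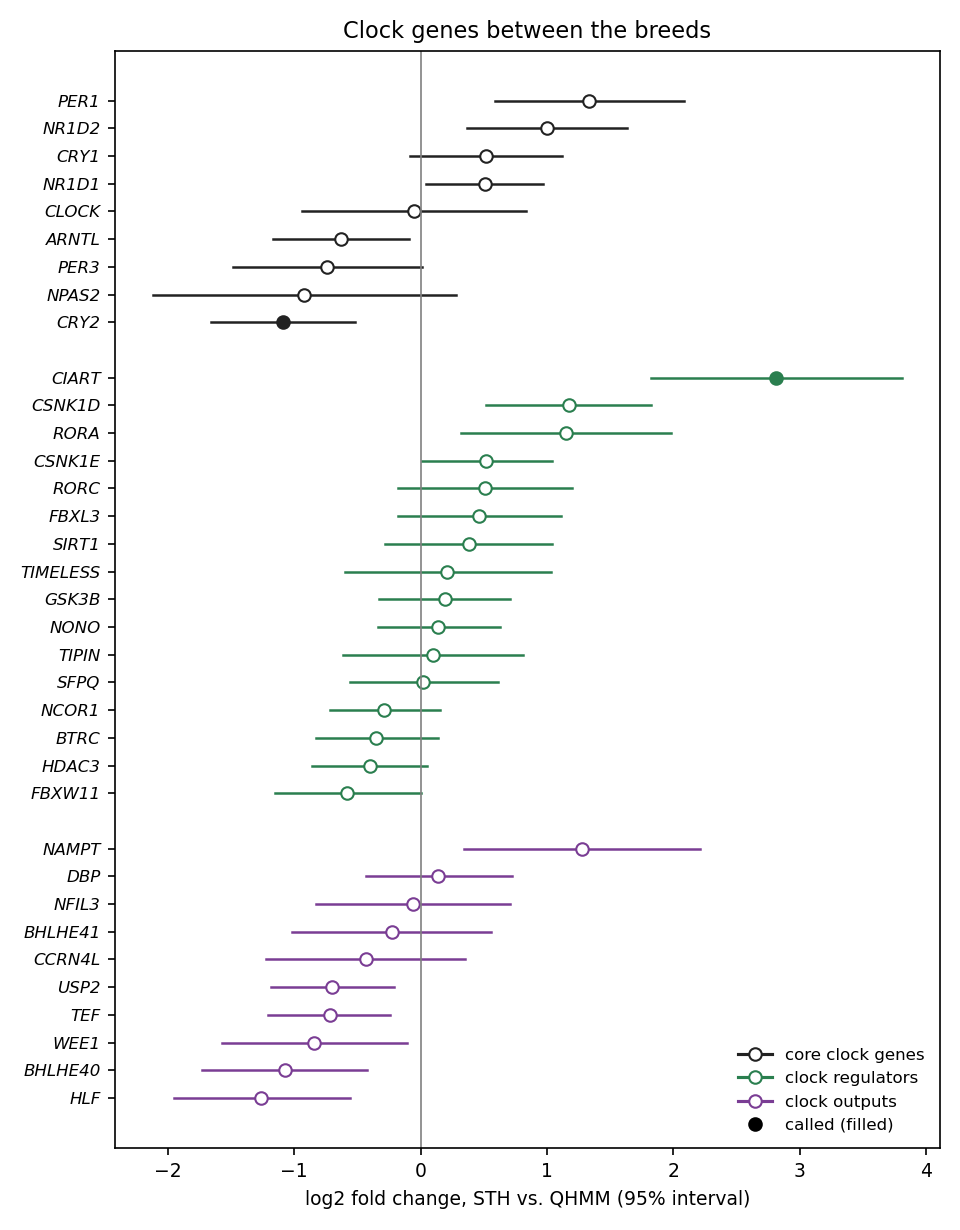
Log2 fold changes in STH vs. QHMM with 95% intervals for the core clock genes, 16 clock regulators and 10 clock outputs that were tested. Filled circles are genes called by edgeR, CRY2 (-1.09) and CIART (2.81), and open circles were not called.

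Among 9 genes that the muscle clock is known to act on, edgeR called 4, where it called 3.45% of all genes tested. PDK4, which turns the muscle from glucose to fat, had a log2 fold change of 5.16 (edgeR FDR = 0.0137) and the ubiquitin ligase FBXO32 of 2.68 (FDR = 0.0433). FBXO32 had 10122 normalized counts in STH replicate 2 and 2062 and 1708 in the other STH animals. It was still called without STH replicate 2. MYOD1, a muscle regulatory factor with a clock-bound enhancer, had -2.61 (FDR = 0.0292), and PDP1, a phosphatase that activates pyruvate dehydrogenase, had -1.46 (FDR = 0.0352). UCP3, TCAP, HK2, TBC1D1 and TEAD1 were not called, and in normalized counts their breeds overlapped. The median of the 9 was 0.03. With 1 library left out the calls numbered 0 (without QHMM replicate 1) to 4, and 1 (PDK4) without both QHMM replicate 2 and STH replicate 3. With all 6 libraries, robust dispersions left 1 call (PDP1), and limma-trend on RPKM left 2 with the filter (MYOD1 and PDK4) and 1 without it (PDK4).

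Other gene groups differed between the same animals. Of 8 glucocorticoid-response genes, edgeR called 5 as higher in STH (1.62% of all genes were) and 0 as lower (1.83%). Their median log2 fold change was 1.57. Their summed RPKM was 199 to 331 in QHMM and 845 to 894 in STH. The calls numbered 2 without QHMM replicate 1 or QHMM replicate 3, 1 (FKBP5) without both QHMM replicate 2 and STH replicate 3, 3 with robust dispersions and 2 with limma-trend on unfiltered RPKM. FKBP5, ZBTB16, KLF9, KLF15 and CEBPD were called, and FKBP5 had 116, 460.0 and 254 normalized counts in QHMM and 3836, 7921 and 6332 in STH. KLF9 had 3676 in STH replicate 2 and 1188 and 1279 in the other STH animals, and was not called without STH replicate 2. PER1 is itself a direct target of the glucocorticoid receptor, and the part of this group in the PER1 difference was not tested. Of 12 immediate-early genes edgeR called 0 (3.45% of all genes) and DESeq2 1 (7.8%), and 1 had an unadjusted p below 0.05 in edgeR (19.2%). Their summed RPKM of 112 to 4146 in QHMM spanned the 1110.3 to 3586 of STH. The 112 was QHMM replicate 3 alone, where QHMM replicates 1 and 2 had 4146 and 1558. QHMM replicate 3 was also the library with the least PER1, and whether the 2 are related was not tested.

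Markers of slow fibres and, apart from FABP4 (log2 fold change -0.04), of adipocytes were lower in STH. Of 10 slow fibre markers edgeR called 6 as lower in STH (1.83% of all genes were) and 0 as higher (1.62%). The summed RPKM of the 10 was 16757 to 24209.6 in QHMM and 7413 to 11419 in STH. The called genes were OMYHCS, MYH6, MYL2, TNNT1, TNNI1 and CASQ2, with log2 fold changes of -1.50 (MYH6) to -1.07 (TNNI1). Of 5 adipocyte markers edgeR called 4 as lower (1.83% of all genes were), ADIPOQ, PLIN1, LEP and CIDEC. The summed RPKM of the 5 was 59.2 to 276 in QHMM and 40.3 to 129 in STH, with LEP at 0 reads in STH replicate 2. No call was made by edgeR among 9 fast fibre, 6 endothelial, 5 blood and immune and 6 fibroblast markers tested. Of these, 4, 0, 0 and 3 had an unadjusted p below 0.05 in edgeR (19.2% of all genes), and DESeq2 called 2, 0, 0 and 3 (7.8%). All 9 fast fibre and all 6 fibroblast markers had negative log2 fold changes, with medians of -0.71 and -1.06. Endothelial and blood and immune markers went both ways, with medians of -0.09 and -0.24. Summed RPKM was 504 to 1005 in QHMM and 297 to 608 in STH for fibroblast markers, and overlapped also for fast fibre (52253 to 81651 over all libraries), endothelial (134 to 215) and blood and immune markers (24.9 to 55.9). The part of fibre type or of other cells in the clock gene differences was not tested, and in whole muscle fewer cells of a type cannot be told apart from less RNA per cell.

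The genes whose pattern over the 6 libraries was nearest to that of ARNTL, among 11272 genes with a mean of at least 20 normalized counts, were LOC101112867, which the files describe as a mitochondrial enoyl-CoA hydratase, NME6 and LOC101108390. Their centred log2 CPM values differed from those of ARNTL by a root mean square of 0.0386, 0.0489 and 0.0490, where the SD of ARNTL was 0.369. Nearest to CRY2, with an SD of 0.667, were the chemokine CXCL14 (0.0608), LOC101112367, described as dystrobrevin alpha-like (0.104), and the protocadherin PCDH1 (0.142). These are nearest neighbours over 6 libraries that fall into 2 breeds, and carry no test.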

How the data were processed

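Longissimus dorsi RNA of 3 QHMM and 3 STH sheep was read on an Ion Proton instrument. The authors mapped filtered reads to the sheep genome (Oar 3.1 per the labels), kept unique reads and deposited raw counts per gene. A second table that the authors deposited holds RPKM, the same counts over gene length and library total. The counting program and the annotation are not given in the sources used here. There, 25 gene names had turned into dates and were left out. All 12 sample columns were used.

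Counts were tested in R 4.3.3 with edgeR 4.0.16 (TMM, filterByExpr, glmQLFit and glmQLFTest, breed as the only term, all 6 libraries), with Benjamini-Hochberg adjustment over 12506 genes, and genes were called as given above. SEs were taken from the fold change and its F statistic, and intervals are 95%. Normalized counts are counts scaled to the mean effective library size. Alternatives used DESeq2 1.42.0, limma 3.58.1 (limma-trend on log2(RPKM + 1) and log2(RPKM + 0.1)), other filters and normalizations, and libraries left out. The main edgeR fit, DESeq2 and limma-trend with a filter were run on simulated data, limma-trend there on log2(CPM + 1). The other alternatives were not. Plots used matplotlib 3.10.9.

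List genes were matched by name, then by RefSeq gene ID, then by the BLAST symbol in the table when 1 row had it, a step added after the data were seen. MYH1 and HBB had no single row. The clock genes and all lists were chosen with earlier results of these data known. Named are all core clock genes, list members that were called, and for ARNTL and called core clock genes the 3 nearest genes. The summed RPKM of NR1D1 and NR1D2 and of the cryptochromes, and the values given for THRA, TNNT3, CIPC and list genes that were not called were chosen after they were seen. No sequences and no coordinates on the build of the files were used here.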

Additional observations from a re-analysis of the deposited data

How the results depend on the processing

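In all, 18 alternatives were run. The number of genes called, 432, was 975 with DESeq2, 806 without a filter on low counts, 78 with limma-trend on log2(RPKM + 1) without a filter, 11 without both QHMM replicate 2 and STH replicate 3 (chosen after the data were seen, and leaving 2 animals per breed), and 131 to 535 with 1 library left out. For the core clock genes, where the count was 1 (CRY2), it was 3 with DESeq2 and 3 without the filter (PER1, CRY2 and NR1D2 in both). It was 0 with upper-quartile normalization, with the replicate block, with limma-trend without a filter and without both libraries, and 0 to 1 with 1 library left out. With limma-trend on filtered RPKM the 1 called gene was PER1 in place of CRY2. There the median of all genes moved from 0.02 to 0.12, and the split of calls from 203 higher and 229 lower to 212 and 134. CLOCK, with -0.05, changed sign to 0.00 with limma-trend on log2(RPKM + 1) with and without the filter and to 0.05 without both libraries, and lay between -0.62 and 0.17 with 1 library left out. The other 8 genes kept their sign in every alternative that gave them a value, NPAS2 having none with at least 10 counts in every library or with the RPKM filter. The causes were not tested. Same-numbered libraries share only a number in the labels. Their deviations from the breed means correlated at 0.226, -0.038 and -0.13, and those of differently numbered pairs at -0.263 to 0.287. With 3 animals per breed, these values cannot tell whether same-numbered libraries were handled together. With the replicate block 457 genes were called, and the FDR of CRY2 was 0.0509. CLOCK and NPAS2 had the lowest mean RPKM of the 9 genes (1.41 and 0.438) and the largest SEs (0.40 and 0.54). PER1, at a mean RPKM of 23.6, had an SE of 0.34. The part of depth in these SEs was not tested.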

Other observations

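Compared only with animals of its own breed, in normalized counts, QHMM replicate 3 was either the highest or the lowest for each of the 9 core clock genes. It was the highest for CLOCK, PER3, CRY1, CRY2, NR1D1 and NR1D2 and the lowest for ARNTL, NPAS2 and PER1, and QHMM replicate 2 was at the opposite end for 8 of the 9. QHMM replicate 1 was the middle animal of its breed for 8 of the 9 genes. Within STH no animal held an end for more than 7 of the 9 genes. Some of these places were near ties, as QHMM replicates 1 and 2 had 150 and 149 for CRY1 and 877 and 874 for NR1D1. In RPKM, QHMM replicate 3 was instead the middle QHMM animal for ARNTL (4.81, between 4.38 and 5.01) and the highest for NPAS2 (0.569, next to 0.567). There QHMM replicate 2 was the lowest QHMM animal for ARNTL (4.38) and NPAS2 (0.501). It was the middle one for PER1 (14.6, between 7.81 and 15.3). The order thus depended on the scale, was noticed in the data and was not tested.

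CIPC, which the files list as LOC100171393 and which inhibits CLOCK, had 305, 400.3 and 454 normalized counts in QHMM and 433, 566 and 939 in STH. QHMM replicate 3 was above STH replicate 1, so the breeds overlapped in normalized counts. Its log2 fold change was 0.74 (SE 0.30, edgeR FDR = 0.203).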
